A study of Mus musculus with 19 samples.

Results

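The 9 genes described here are markers of resident Kupffer cells, the macrophages that live in the sinusoids of the liver: *Clec4f*, *Vsig4*, *Cd5l*, *Timd4*, *Marco*, *Adgre1*, *Csf1r*, *Cd163* and *Folr2*. They were taken by name from a list, and all 9 were found among the 31053 genes of the count table. Whole-liver RNA came from male C57BL6J mice, whose age is given as 6 to 8 weeks without saying at which point of the study. The 5 vehicle libraries came from mice given PBS, and whether these mice also received a vector is not stated in the labels. The 7 AAV-GFP libraries came from mice given rising doses of thioacetamide (TAA, a hepatotoxin used to cause liver fibrosis) for 12 weeks and injected after 10 weeks with AAV8 TBG eGFP. The 7 AAV-miR-34b/c libraries came from mice given the same TAA course and AAV8 TBG miR-34b combined with AAV8 TBG miR-34c at the same time. Mice of both vector groups were killed 4 weeks after the injection. The TBG promoter directs expression to hepatocytes, so the vectors were not designed to express their cargo in Kupffer cells. Vehicle differs from the other groups in TAA and possibly also in the vector, which then cannot be told apart, whereas AAV-miR-34b/c and AAV-GFP differ in the cargo of the vector.

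Kupffer cells arise before birth, renew themselves in the liver and clear bacteria, dying cells, aged red cells and complement-coated particles from portal blood. Their identity depends on signals of the neighbouring endothelial, stellate and parenchymal cells, and on CSF1 or IL34 acting through the receptor encoded by *Csf1r*. When resident cells are lost, monocytes can enter the niche and acquire a Kupffer program in steps, with *Clec4f* gained earlier and *Timd4* later, and *Timd4* is therefore widely used to mark cells of the original population.

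The sequences before the start sites of 5 members are shown first, because they are the called members of AAV-GFP against vehicle that have an entry (*Adgre1*, also called, has none). Start-site windows from RefSeq (GRCm38.p6) were searched for 7 of the 9 members, and *Folr2* had a pair of entries. *Csf1r* was left out of the search, so the motif counts below may not cover every member that has a window. Each run holds the 250 bases before the start site, 5′ to 3′ on the strand of the gene. Capitals mark GAGGAA, a core of sites of the macrophage factor PU.1, or TGCTGA, part of the site that MAF factors bind, on either strand (reverse complements TTCCTC and TCAGCA).

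Timd4, chr11:46810549-46810798, plus strand: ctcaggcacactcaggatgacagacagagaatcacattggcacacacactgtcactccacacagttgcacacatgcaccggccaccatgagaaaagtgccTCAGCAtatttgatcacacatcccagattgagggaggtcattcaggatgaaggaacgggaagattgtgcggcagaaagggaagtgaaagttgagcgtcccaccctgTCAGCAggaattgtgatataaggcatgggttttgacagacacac

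Cd163, chr6:124304401-124304650, plus strand: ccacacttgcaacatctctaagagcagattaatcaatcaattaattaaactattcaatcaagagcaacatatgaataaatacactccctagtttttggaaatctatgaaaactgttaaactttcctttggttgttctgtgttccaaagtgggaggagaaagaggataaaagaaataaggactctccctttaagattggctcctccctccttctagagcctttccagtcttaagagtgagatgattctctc

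Clec4f, chr6:83656117-83656366, minus strand: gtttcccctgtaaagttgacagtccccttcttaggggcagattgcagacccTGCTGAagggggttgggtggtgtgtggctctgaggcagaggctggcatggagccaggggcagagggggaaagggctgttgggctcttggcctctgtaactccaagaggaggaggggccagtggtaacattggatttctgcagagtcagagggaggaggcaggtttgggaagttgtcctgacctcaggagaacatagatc

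Vsig4, chrX:96293439-96293688, minus strand: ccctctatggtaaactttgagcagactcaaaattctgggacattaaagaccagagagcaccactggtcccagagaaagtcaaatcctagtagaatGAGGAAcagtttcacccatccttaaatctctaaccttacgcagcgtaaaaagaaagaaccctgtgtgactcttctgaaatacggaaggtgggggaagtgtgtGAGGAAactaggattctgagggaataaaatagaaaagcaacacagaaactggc

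Cd5l, chr3:87357631-87357880, plus strand: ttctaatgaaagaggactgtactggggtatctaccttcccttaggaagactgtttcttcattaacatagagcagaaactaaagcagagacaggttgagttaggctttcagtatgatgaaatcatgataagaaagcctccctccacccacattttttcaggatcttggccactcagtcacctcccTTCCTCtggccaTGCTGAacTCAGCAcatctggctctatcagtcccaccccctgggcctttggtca

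In the window from 250 bases before to 50 bases after the start, TGCTGA or its reverse complement was found in 6 of the 8 member entries searched. It was found in 19.5% of 32851 mouse windows of the same length. GAGGAA or its reverse complement was found in 3 of the 8 entries and in 28.3% of all windows. *Cd163* held neither motif, *Timd4* held TGCTGA in reverse at positions -150 and -44, and *Cd5l* held the TTCCTC form at -66 and a close pair of TGCTGA matches at -54 and -46. *Clec4f* had a single TGCTGA match at -199. *Vsig4* held GAGGAA at -155 and -53, and a further reversed TGCTGA lay past its start at position 24. These matches are letters in a window and were not tested for binding.

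Total counts per library ranged from 2214073 to 4145454 in vehicle, from 2463842 to 4383805 in AAV-GFP and from 2717503 to 5208405 in AAV-miR-34b/c. Nothing in the labels names separate cultures or pools, and p-values measure the spread between these libraries. Libraries of the same group formed 52 pairs, and 6 of these were closer than the rest, with an excess coefficient of variation (what counting error leaves unexplained) of 0.0812 to 0.171 where the remaining 46 had 0.215 or more. Each count of called members is also given with these close pairs summed. Whether the libraries of a close pair come from 1 animal or 2 is not stated, and if they share an animal, every n and p given over single libraries overstates the replication. With the pairs summed, the vehicle group has 3 samples, the AAV-GFP group 6 and the AAV-miR-34b/c group 4. The mitochondrial share of counts also divided the libraries: it was 3.71% to 5.65% in all 5 vehicle, 3 AAV-GFP (5 to 7) and 2 AAV-miR-34b/c (1 and 2) libraries, and 7.85% to 10.8% in the other 4 AAV-GFP and 5 AAV-miR-34b/c libraries. The counts of called members are given again within these library sets, a split made after the data were seen, and its part in the results was not tested beyond those values. Vehicle library 2 had the lowest value of its group for 8 of the 9 members and the highest for the remaining one, *Timd4*.

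The first comparison asked how the Kupffer cell markers of TAA-treated mice with the control vector differ from those of vehicle mice. All 9 members passed the filter on low counts and all 9 had lower fitted levels in AAV-GFP, with a median log2 fold change of -0.89 against -0.01 over the 9522 genes tested. By edgeR's quasi-likelihood test with Benjamini-Hochberg adjustment over all genes, 6 of the 9 fell (*Timd4*, *Cd163*, *Adgre1*, *Clec4f*, *Vsig4* and *Cd5l*), whereas 5.19% of all genes tested were called lower. *Timd4* and *Cd163* were also the 2 members without overlap between the groups, against 2.19% of all genes tested that lay wholly lower. In whole-liver RNA, fewer Kupffer cells and less RNA of a gene per Kupffer cell cannot be told apart.

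**Figure D1:**
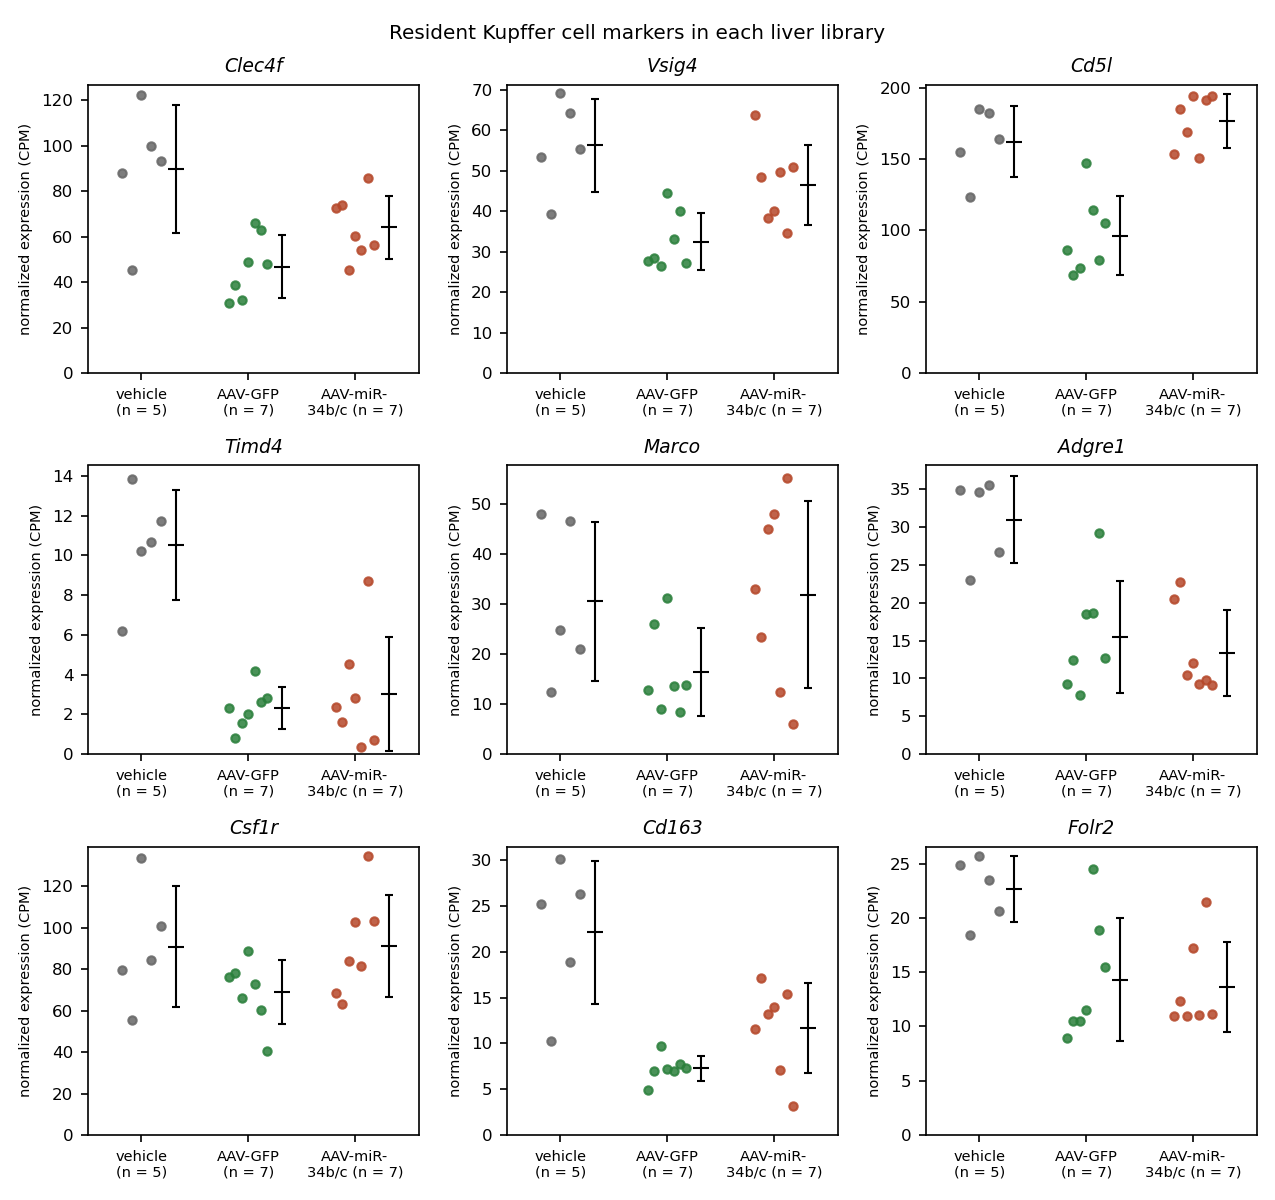
Normalized expression (CPM, counts scaled to library size by TMM) of each member on the vertical axis for vehicle (grey), AAV-GFP (green) and AAV-miR-34b/c (orange). Each point is a library in order of its replicate number, and the black bar is the mean ± SD. All 7 AAV-GFP libraries lie below all 5 vehicle libraries for *Timd4* and *Cd163*, and all 7 AAV-miR-34b/c libraries lie above all AAV-GFP libraries for *Cd5l*.

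*Timd4* (chr11:46810800-46844332, GRCm38, plus strand) encodes a receptor for phosphatidylserine on dying cells. Its levels in CPM were 6.22, 13.8, 10.2, 10.7 and 11.7 in vehicle libraries 1 to 5, and in AAV-GFP they ran from 0.807 over a median of 2.31 to 4.16. The groups did not overlap. *Timd4* fell 4.38-fold (log2 fold change -2.13, SE 0.34, edgeR adjusted p = 0.000569), from 10.5 ± 2.79 CPM (SD, n = 5) to 2.33 ± 1.06 CPM (SD, n = 7). These are small numbers of reads, 18 to 44 per vehicle library and 3 to 19 per AAV-GFP library, and *Timd4* passed the filter through the vehicle libraries. Without *Timd4*, 5 of the other 8 members were called lower.

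*Cd163* (chr6:124304656-124330527, plus strand) encodes the scavenger receptor for complexes of haemoglobin and haptoglobin. Its levels were 25.2, 10.2, 30.1, 18.9 and 26.3 CPM in vehicle libraries 1 to 5, with library 2 standing low, and 4.95 to 9.70 CPM with a median of 7.21 in AAV-GFP. The highest AAV-GFP library stayed just under the lowest vehicle library. *Cd163* fell 3.02-fold (log2 fold change -1.59, SE 0.25, edgeR adjusted p = 0.000555).

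*Clec4f* (chr6:83644542-83656187, minus strand) encodes a C-type lectin that in the mouse is largely confined to Kupffer cells. It measured 88.1, 45.1, 122, 100.0 and 93.3 CPM in vehicle libraries 1 to 5, and 30.7 to 66.0 CPM with a median of 48.0 in AAV-GFP. The groups overlapped because of vehicle library 2, which lay among the AAV-GFP libraries. *Clec4f* fell 1.91-fold (log2 fold change -0.93, SE 0.23, edgeR adjusted p = 0.0133).

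*Vsig4* (chrX:96247203-96293438, minus strand) encodes the complement receptor CRIg, which captures C3-coated particles. Vehicle libraries 1 to 5 held 53.5, 39.2, 69.2, 64.2 and 55.3 CPM, and the AAV-GFP libraries 26.4 to 44.4 CPM with a median of 28.5. Of the 7 AAV-GFP libraries, 5 lay below every vehicle library. *Vsig4* fell 1.73-fold (log2 fold change -0.79, SE 0.19, edgeR adjusted p = 0.0106).

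*Cd5l* (chr3:87357881-87371073, plus strand) encodes a secreted scavenger protein that tissue macrophages release into blood. Vehicle libraries 1 to 5 held 155, 124, 185, 182 and 164 CPM, and the AAV-GFP libraries 68.6 to 147 CPM with a median of 86.4. All but 1 of the AAV-GFP libraries lay below every vehicle library, the exception being library 4. *Cd5l* fell 1.68-fold (log2 fold change -0.75, SE 0.19, edgeR adjusted p = 0.0151).

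*Adgre1* (chr17:57358691-57483527, plus strand) encodes F4/80, a surface protein of most mouse tissue macrophages. Its levels were 34.9, 23.1, 34.6, 35.6 and 26.7 CPM in vehicle libraries 1 to 5, and 7.76 to 29.3 CPM with a median of 12.6 in AAV-GFP. AAV-GFP library 6 alone reached into the vehicle range. *Adgre1* fell 1.99-fold (log2 fold change -0.99, SE 0.26, edgeR adjusted p = 0.0181).

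The other 3 members did not pass the threshold. *Folr2* (chr7:101839988-101857194, minus strand), the folate receptor beta of tissue macrophages, went from 18.4 to 25.7 CPM in vehicle to 8.91 to 24.5 CPM in AAV-GFP (log2 fold change -0.64, SE 0.24, edgeR adjusted p = 0.0835), and its highest AAV-GFP values were those of libraries 5, 6 and 7, which had the lower mitochondrial shares. *Marco* (chr1:120474538-120505024, minus strand), a class A scavenger receptor for bacteria, ranged from 12.5 to 48.0 CPM in vehicle and from 8.45 to 31.2 CPM in AAV-GFP (log2 fold change -0.89, SE 0.34, edgeR adjusted p = 0.0885). *Csf1r*, the receptor for CSF1 and IL34 that monocytes and all macrophages carry, ranged from 55.3 to 134 CPM in vehicle and from 40.4 to 88.8 CPM in AAV-GFP. Its log2 fold change was -0.39 with a 95% confidence interval of -0.83 to 0.05 (edgeR adjusted p = 0.221). *Folr2* overlaps genes on the opposite strand and *Csf1r* a gene on each strand, and since the strand setting of the counting is not given in the sources used here, their values are less certain.

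With the close pairs of libraries summed, *Timd4* and *Cd163* were the 2 members called lower, and the fitted median of the 9 was -0.76. Over all genes, 85 of 10042 tested were called lower in that fit. Within the 8 libraries with a mitochondrial share under 6%, *Timd4* (log2 fold change -1.67, edgeR adjusted p = 0.0267) and *Cd163* (-1.57, adjusted p = 0.0130) were again the 2 called, and the median was -0.69. Of 9571 genes tested in that set, 77 were called lower. There *Clec4f* was at -0.59, *Adgre1* at -0.62, *Folr2* at -0.19, *Vsig4* at -0.74 and *Cd5l* at -0.69. *Csf1r* was at -0.63 and *Marco* at -1.35, and none of these was called (edgeR adjusted p from 0.0729 to 0.815). Leaving out vehicle library 4 left 4 called members, *Clec4f*, *Vsig4*, *Timd4* and *Cd163*, and leaving out vehicle library 2 gave 7. All genes called lower were then 257 of 9690 and 410 of 9748.

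**Figure D2:**
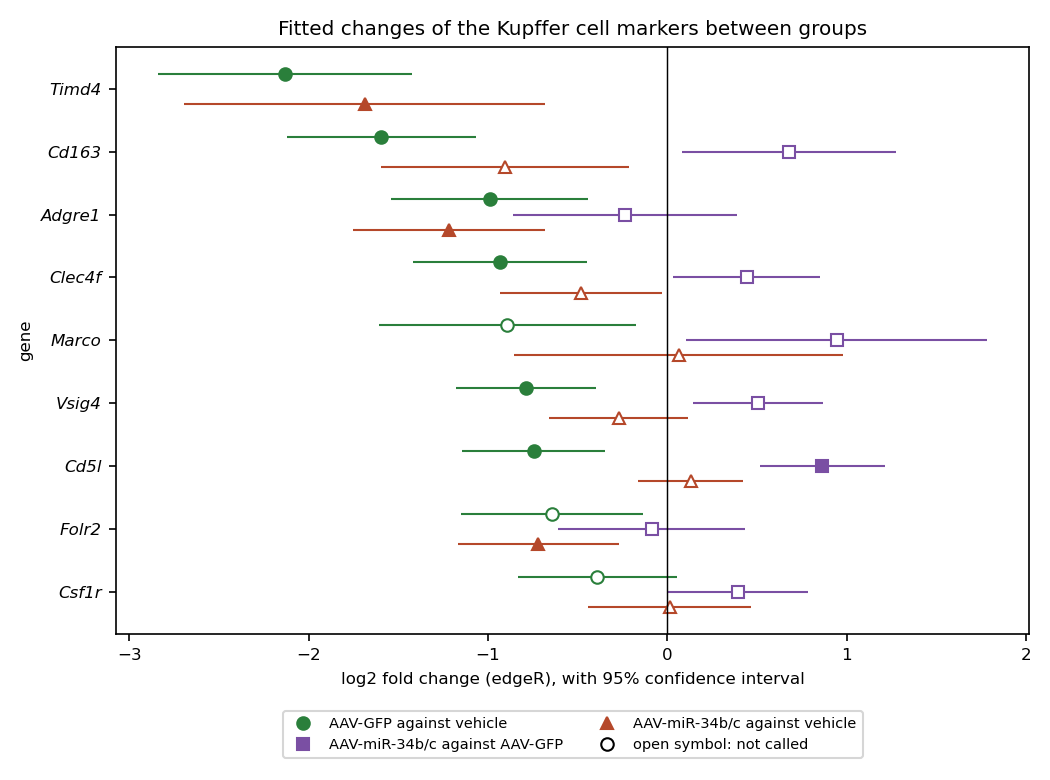
Fitted log2 fold changes on the horizontal axis with 95% confidence intervals for AAV-GFP against vehicle (green circles), AAV-miR-34b/c against AAV-GFP (purple squares) and AAV-miR-34b/c against vehicle (orange triangles). Filled symbols passed an adjusted p of 0.05. All 9 circles lie below 0, from -2.13 for *Timd4* to -0.39 for *Csf1r*, and *Timd4* has no square because it did not pass the filter on low counts in that comparison.

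The second comparison asked what changed when the vector carried miR-34b and miR-34c in place of GFP. *Cd5l* rose 1.82-fold and was the only member called among the 8 that passed the filter (log2 fold change 0.86, SE 0.17, edgeR adjusted p = 0.00553), whereas 1.95% of the 9252 genes tested were called higher. In AAV-miR-34b/c, *Cd5l* ran from 150 to 194 CPM with a median of 185, and every one of these 7 libraries lay above the highest AAV-GFP library at 147 CPM. Such a separation toward higher values was found for 0.767% of all genes tested. *Cd5l* was called in the libraries with mitochondrial shares over 6% (log2 fold change 0.92, edgeR adjusted p = 0.0122). Its change was 0.77 (adjusted p = 0.115) in those under 6% and 0.83 (adjusted p = 0.0888) with close pairs summed. In the summed fit 0 of the 9 members were called and 4 had an unadjusted p under 0.05. Over all genes, 55 of 10454 tested were called higher in that fit.

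*Vsig4*, *Clec4f*, *Cd163* and *Marco* had higher fitted levels that did not pass the threshold. *Vsig4* held 34.7 to 63.8 CPM in AAV-miR-34b/c, a log2 fold change of 0.50 (SE 0.17, edgeR adjusted p = 0.130). *Clec4f* held 45.4 to 85.9 CPM, a log2 fold change of 0.44 (SE 0.20, edgeR adjusted p = 0.273). Both overlapped the AAV-GFP range. *Cd163* ran from 3.14 to 17.1 CPM, a log2 fold change of 0.68 (SE 0.29, edgeR adjusted p = 0.245), with libraries 5 and 7 within or below the AAV-GFP range. Without library 7 of AAV-miR-34b/c, *Cd163* was at the threshold (log2 fold change 0.84, edgeR adjusted p = 0.0499) and the number of called members was 2. *Marco* spread from 5.93 to 55.3 CPM, wider than in either other group, with a log2 fold change of 0.94 (SE 0.40, edgeR adjusted p = 0.249). Among the libraries under 6% mitochondrial share *Marco* was the 1 member called (log2 fold change 1.24, edgeR adjusted p = 0.0462). Of 9608 genes tested in that set, 190 were called higher.

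*Csf1r*, *Adgre1* and *Folr2* showed no common direction. *Csf1r* (chr18:61100598-61132149, plus strand) measured 63.2 to 135 CPM in AAV-miR-34b/c, a log2 fold change of 0.39 with a 95% confidence interval of -0.0039 to 0.78 (edgeR adjusted p = 0.333). *Adgre1* measured 9.07 to 22.7 CPM, a log2 fold change of -0.23 with an interval of -0.86 to 0.39 (edgeR adjusted p = 0.793). *Folr2* measured 10.9 to 21.5 CPM, a log2 fold change of -0.09 with an interval of -0.61 to 0.43 (edgeR adjusted p = 0.921). Under 6% mitochondrial share *Adgre1* was at 0.10 and *Folr2* at -0.76 on the log2 scale, and over 6% they were at -0.28 and 0.47, none of them called. *Timd4* was too low to enter the fit: its AAV-miR-34b/c libraries ran from 0.357 to 8.71 CPM with a median of 2.39, and its log2 CPM differed from AAV-GFP by 0.02 (two-sided exact permutation p = 0.963). A single library, AAV-miR-34b/c 6, gave 43 *Timd4* counts, and no other library of that group gave more than 16. Over the 8 members fitted, 6 changes were above 0 and 2 below, with a median of 0.47 against -0.01 over all genes.

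The third comparison set AAV-miR-34b/c against vehicle. It shares the vehicle libraries with the first comparison and the AAV-miR-34b/c libraries with the second, and the first and second share the AAV-GFP libraries, so the 3 sets of values are not independent. Of the 9 members, 3 fell, *Adgre1*, *Timd4* and *Folr2*, while 9.75% of the 9290 genes tested were called lower. *Adgre1* fell 2.32-fold, to 13.4 ± 5.72 CPM (SD, n = 7) from 31.0 ± 5.72 CPM (SD, n = 5), with a log2 fold change of -1.22 (SE 0.25, edgeR adjusted p = 0.00390). It was the 1 member without overlap, against 3.82% of all genes tested. Within AAV-miR-34b/c, *Adgre1* was highest in libraries 1 and 2 (20.5 and 22.7 CPM), the ones with mitochondrial shares under 6%, and at most 12.0 CPM in the other 5. With those 2 libraries alone against vehicle, its log2 fold change was -0.52 (edgeR adjusted p = 0.275).

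*Timd4* fell 3.22-fold (log2 fold change -1.69, SE 0.48, edgeR adjusted p = 0.0196), and 6 of 7 AAV-miR-34b/c libraries lay below every vehicle library, with library 6 as the exception. Without library 6 the log2 fold change was -2.29 (edgeR adjusted p = 0.00266), and in the libraries under 6% mitochondrial share it was -2.36 (adjusted p = 0.00807). As in the first comparison, *Timd4* passed the filter through the vehicle libraries, and without it 2 of the other 8 members were called lower. *Folr2* fell 1.65-fold (log2 fold change -0.72, SE 0.21, edgeR adjusted p = 0.0246), again with library 6 as the exception. The call for *Folr2* was lost when vehicle library 1, 3 or 4 or AAV-miR-34b/c library 3 was left out (adjusted p from 0.0516 to 0.0610).

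The remaining 6 members did not pass the threshold. *Cd163* averaged 11.7 ± 4.91 CPM against 22.1 ± 7.80 CPM in vehicle (log2 fold change -0.90, SE 0.33, edgeR adjusted p = 0.0561). *Clec4f* averaged 64.1 ± 14.0 against 89.8 ± 28.2 CPM (log2 fold change -0.48, SE 0.21, edgeR adjusted p = 0.114), and *Vsig4* 46.6 ± 9.85 against 56.3 ± 11.5 CPM (log2 fold change -0.27, SE 0.18, edgeR adjusted p = 0.296). *Cd5l* averaged 177 CPM against 162 CPM, a log2 fold change of 0.13 with a 95% confidence interval of -0.17 to 0.42. *Marco* (log2 fold change 0.06, interval -0.85 to 0.98) and *Csf1r* (0.01, interval -0.44 to 0.47) had changes near 0 with wide intervals, and their sign, and that of *Cd5l*, turned under normalization by library size only. The SDs here are over 7 AAV-miR-34b/c and 5 vehicle libraries.

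With close pairs summed, 0 of the 9 members were called by edgeR in AAV-miR-34b/c against vehicle, with 2 at an unadjusted p under 0.05. Over all genes, 128 of 10604 tested were called lower in that fit. With each library as a sample DESeq2 called 4 members and limma-voom 5. These tools called 1118 and 1938 of 9290 genes lower. In the summed fit *Adgre1* was at -1.20 (edgeR adjusted p = 0.0611), *Timd4* at -1.57 (adjusted p = 0.139) and *Folr2* at -0.60 (adjusted p = 0.209). Without vehicle library 2, 5 members were called, *Clec4f* and *Cd163* joining *Adgre1*, *Timd4* and *Folr2*, and in the libraries under 6% mitochondrial share *Timd4* was the 1 called. All genes called lower in these fits were 749 of 9471 and 260 of 9813. Under 6%, *Folr2* was at -0.96 (edgeR adjusted p = 0.0557) and *Adgre1* at -0.52 (adjusted p = 0.275).

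**Figure D3:**
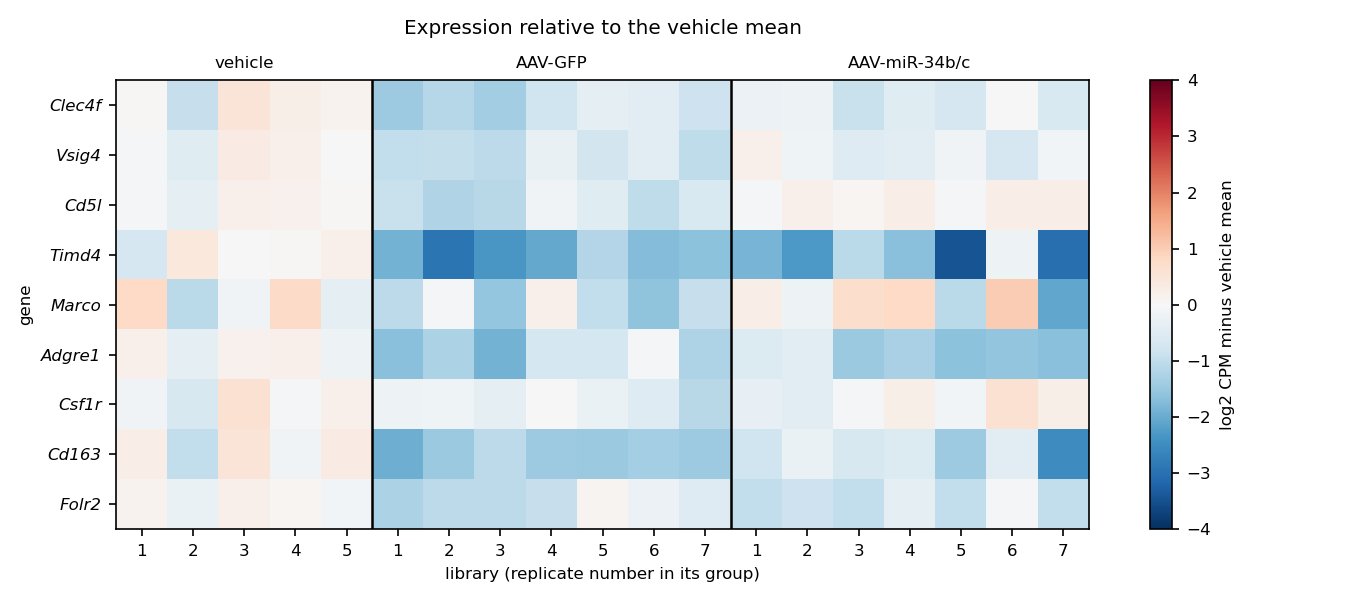
Colour gives the log2 CPM of each member (rows) in each library (columns, by group and replicate number) minus the mean over the 5 vehicle libraries, with blue for lower and red for higher. The *Timd4* row is blue in the AAV-GFP and AAV-miR-34b/c columns, palest at AAV-miR-34b/c library 6 (8.71 CPM), and the *Cd5l* row returns from blue to near white in the AAV-miR-34b/c columns.

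The members were also set against each other within a library, which removes differences in the total amount of counted RNA. Relative to *Clec4f*, *Timd4* was lower in AAV-GFP than in vehicle, with a mean log2 ratio of -4.03 ± 0.44 (SD, n = 7) against -2.99 ± 0.80 (SD, n = 5). The difference of -1.04 had a two-sided exact permutation p = 0.00379, adjusted over the 6 ratio tests to 0.0227, and 6 of 7 AAV-GFP libraries lay below every vehicle library. In AAV-miR-34b/c the *Timd4* to *Clec4f* ratio was -4.49 ± 1.03 (SD, n = 7), lower than in vehicle (exact permutation p = 0.0240, adjusted 0.0360) and different from AAV-GFP by -0.45 (exact permutation p = 0.301, adjusted 0.361). Vehicle library 2, at -1.66, stood above the other vehicle libraries, which ran from -3.70 to -2.93. In the libraries under 6% mitochondrial share AAV-GFP differed from vehicle by -0.98 (exact permutation p = 0.0536). Without vehicle library 2 the difference between AAV-GFP and vehicle was -0.71 and that between AAV-miR-34b/c and vehicle was -1.17 (exact permutation p = 0.0667). With close pairs summed the difference of AAV-miR-34b/c from vehicle was -1.65 (exact permutation p = 0.171). All these ratios rest on few *Timd4* reads in the vector groups, 3 to 19 per AAV-GFP library and 1 to 43 per AAV-miR-34b/c library. Vehicle libraries held 18 to 44, and *Timd4* passed the filter against vehicle through them. In the second comparison *Timd4* failed the filter on low counts, so the ratio test there cannot decide whether the vector groups differ.

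Relative to *Adgre1*, *Clec4f* stood at 1.47 ± 0.35 (SD, n = 5) in vehicle and 1.62 ± 0.31 (SD, n = 7) in AAV-GFP on the log2 scale, a difference of 0.16 (exact permutation p = 0.424). In AAV-miR-34b/c it was 2.27 ± 0.48 (SD, n = 7), higher by 0.64 than in AAV-GFP (exact permutation p = 0.00874, adjusted 0.0253) and by 0.80 than in vehicle (exact permutation p = 0.0126, adjusted 0.0253). In each case 5 of the 7 libraries lay above every library of the other group. The 2 that did not were libraries 1 and 2, at 1.80 and 1.68, again the ones under 6% mitochondrial share. Within the libraries over 6% the difference from AAV-GFP was 0.83 (exact permutation p = 0.0159), and within those under 6% it was 0.15 (exact permutation p = 0.900, where no split of 2 against 3 libraries can pass the threshold). Against vehicle, the libraries under 6% differed by 0.27 (exact permutation p = 0.381), and with close pairs summed the difference was 0.99 (exact permutation p = 0.0857).

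**Figure D4:**
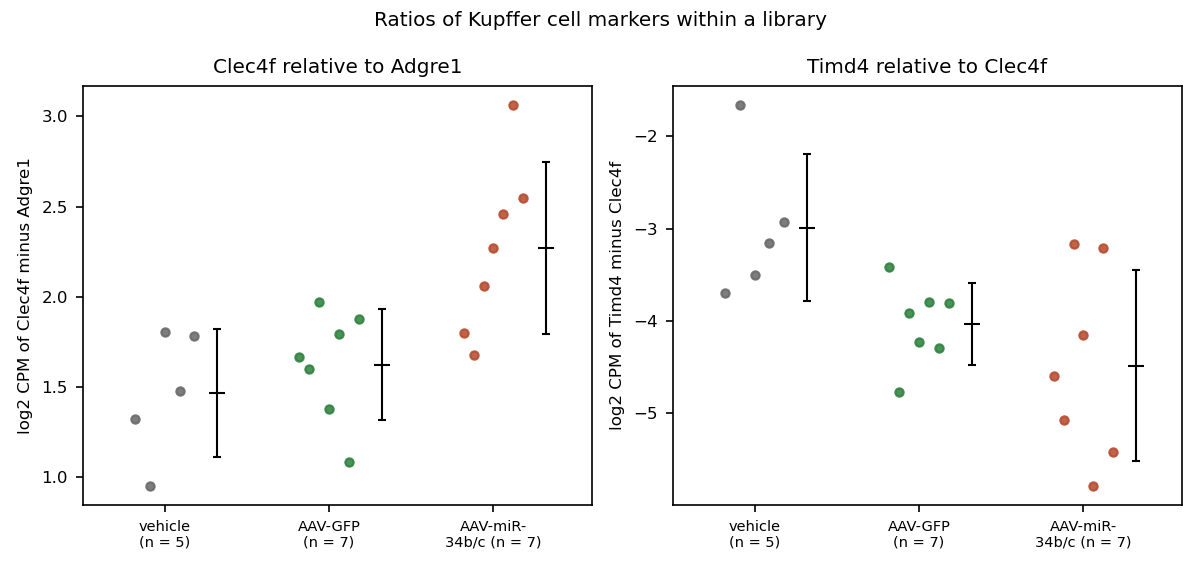
Difference of log2 CPM between 2 members in the same library (vertical axes), *Clec4f* relative to *Adgre1* on the left and *Timd4* relative to *Clec4f* on the right, with points for libraries and black bars for the mean ± SD. On the left, 5 of 7 AAV-miR-34b/c libraries lie above all others, and on the right, 6 of 7 AAV-GFP libraries lie below all vehicle libraries.

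After removal of the group means, 33 of the 36 pairs of members had a positive Pearson r over the 19 libraries, with a median of 0.29. The pairs ranged from -0.32 (*Vsig4* and *Timd4*) to 0.73 (*Clec4f* and *Folr2*), and all share the libraries and their depth. The genes most like the mean of the 9 members across the 19 libraries, among 9919 compared, were *Znrd1* (r = 0.83), *Nfkbib* (0.77), *Tmc5* (0.77), *Hp* (0.76) and *Crlf2* (0.76).

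Other genes often used for Kupffer cells moved in part. Of 14 tested in AAV-GFP against vehicle, 3 fell and none rose by edgeR. These were *Fcna*, a ficolin of the lectin complement pathway, from 104 ± 18.3 to 45.6 ± 15.5 CPM (log2 fold change -1.18, SE 0.21, adjusted p = 0.00158), *Pcolce2*, an enhancer of procollagen processing that passed the filter through the vehicle libraries (-1.30, SE 0.34, adjusted p = 0.0155), and *Cfp*, the complement factor properdin (-0.64, SE 0.21, adjusted p = 0.0491). The median over the 14 was -0.37. With close pairs summed 1 of 14 was called, *Fcna*, and in the libraries under 6% mitochondrial share edgeR called 0 of 13, with 4 at an unadjusted p under 0.05. In AAV-miR-34b/c against AAV-GFP, 1 of 12 rose, the complement gene *C1qb*, from 46.6 ± 14.0 to 90.0 ± 14.8 CPM (log2 fold change 0.94, SE 0.19, edgeR adjusted p = 0.00858), and *Il18bp*, which encodes a binding protein of interleukin 18, had a change of 0.93 (adjusted p = 0.0588). The *C1qb* call was lost with close pairs summed (0.90, adjusted p = 0.0768) and under 6% mitochondrial share (0.65, adjusted p = 0.215), and held over 6% (1.19, adjusted p = 0.00385). Another gene of this list was called higher under 6% (1 of 13 tested), and over 6% 1 of 14 was called lower. Against vehicle, 3 of 13 fell in AAV-miR-34b/c: *Fcna* (-0.94, SE 0.21, edgeR adjusted p = 0.00577), *Slc40a1*, the iron exporter ferroportin (-0.76, SE 0.19, adjusted p = 0.00971), and *Cdh5*, better known as an endothelial cadherin (-1.25, SE 0.26, adjusted p = 0.00383). *Fcna* was not called in the libraries under 6% mitochondrial share (adjusted p = 0.0609 in the first comparison and 0.132 in the third), nor was *Cdh5* (0.221), and 1 gene of this list was called in the third comparison there and 1 with close pairs summed.

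Few general macrophage genes passed the test. Of 13 tested in AAV-GFP against vehicle, edgeR called 0, with 1 at an unadjusted p under 0.05, DESeq2 called 0 and limma-voom called 1 higher and 2 lower. The leading genes by p were *Laptm5* (log2 fold change 0.72, adjusted p = 0.130) and *Mrc1*, the mannose receptor that sinusoidal endothelium also carries (-0.36, adjusted p = 0.169). The median log2 fold change was -0.29, and the summed level of the list was 313 to 503 CPM in vehicle and 282 to 459 CPM in AAV-GFP. In AAV-miR-34b/c against vehicle, *Laptm5*, a lysosomal membrane gene of blood cells, was the 1 of 13 called (log2 fold change 1.35, SE 0.30, edgeR adjusted p = 0.00609; 0.71 and 0.339 under 6% mitochondrial share). With all libraries, edgeR called 0 of this list in AAV-miR-34b/c against AAV-GFP, where 4 of 13 had an unadjusted p under 0.05 (DESeq2 called 1 and limma-voom 2), *Csf2rb* (0.97, adjusted p = 0.0598) and *Fcer1g* (0.53, adjusted p = 0.125) having the smallest. In the libraries under 6% mitochondrial share 1 of 13 was called there, *Cd14*, a receptor for bacterial lipopolysaccharide. It did not pass the filter with all libraries, where 2 AAV-miR-34b/c and 1 AAV-GFP libraries were over its limit. It had 4 to 92 counts per AAV-miR-34b/c library and 3 to 17 per AAV-GFP library. Its call in the smaller set, of 2 AAV-miR-34b/c and 3 AAV-GFP libraries, therefore supports no statement about the list.

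Genes of recruited monocytes were mostly too low to test, with 4 of 12 passing the filter in AAV-GFP against vehicle. *Cx3cr1*, the fractalkine receptor, rose from 1.83 ± 1.17 to 9.84 ± 3.07 CPM (log2 fold change 2.47, SE 0.41, edgeR adjusted p = 0.000803), while *Plac8* (-1.01, SE 0.28, adjusted p = 0.0225) and *Fn1* (-1.07, SE 0.20, adjusted p = 0.00190) fell, the last of which hepatocytes also make. *Cx3cr1* passed the filter through the AAV-GFP libraries alone, with 20 to 46 counts per library against 1 to 8 in vehicle. The call for *Plac8* was lost with close pairs summed (-0.996, adjusted p = 0.101) and under 6% mitochondrial share (-0.66, adjusted p = 0.333). *Cx3cr1* was likewise higher in AAV-miR-34b/c than in vehicle (log2 fold change 1.98, SE 0.44, edgeR adjusted p = 0.00597, and 0.0517 with close pairs summed), again passing the filter through the vector group. In that comparison *Itgam*, an integrin of monocytes and neutrophils that likewise passed the filter through the AAV-miR-34b/c libraries, was also called higher (1.53, SE 0.47, adjusted p = 0.0278) and *Fn1* lower (-0.68, SE 0.16, adjusted p = 0.00681), and with close pairs summed edgeR called 0 of 8, with 3 at an unadjusted p under 0.05. In AAV-miR-34b/c against AAV-GFP edgeR called 0 of 3, with 1 at an unadjusted p under 0.05. In the libraries under 6% mitochondrial share 3 of 7 rose. Genes that failed the filter with all libraries were tested there, so that count supports no statement about the list. Among genes of scar-associated macrophages, *Gpnmb*, a glycoprotein of lipid-laden macrophages, averaged 0.187 ± 0.301 CPM in vehicle and 23.1 ± 9.20 CPM in AAV-GFP (edgeR adjusted p = 2.81e-07). With at most 2 counts in a vehicle library, it passed the filter through the AAV-GFP libraries alone. It was lower in AAV-miR-34b/c, at 8.92 ± 3.65 CPM (log2 fold change from AAV-GFP -1.37, SE 0.30, edgeR adjusted p = 0.0143), whereas *Fabp5*, a fatty acid binding protein, rose there (1.63, SE 0.21, adjusted p = 0.000193). *Fabp5* had fallen in AAV-GFP, from 100.2 ± 56.4 CPM in vehicle to 24.5 ± 5.76 CPM (log2 fold change -2.03, SE 0.29, edgeR adjusted p = 0.000198), and at 76.7 ± 26.7 CPM in AAV-miR-34b/c its change from vehicle was -0.38 (95% interval -1.04 to 0.27, adjusted p = 0.390). The lower *Gpnmb* was not called with close pairs summed (-1.31, adjusted p = 0.115) or under 6% mitochondrial share (-1.18, adjusted p = 0.237), and was called over 6% (-1.54, adjusted p = 0.00620). *Cd63*, a tetraspanin of late endosomes, rose in AAV-GFP against vehicle (log2 fold change 2.12, SE 0.22, edgeR adjusted p = 6.92e-06). In all, 3 of the 8 tested genes of this list rose and 1, *Fabp5*, fell in that comparison, and with close pairs summed 2 rose and 1 fell. In AAV-miR-34b/c against vehicle 2 of 8 rose, and under 6% mitochondrial share 3 of 8 did. With close pairs summed 1 of 8 rose, *Gpnmb* (log2 fold change 5.41, edgeR adjusted p = 0.00941), and *Cd63* was not called (1.88, adjusted p = 0.102). With all libraries *Gpnmb* again passed the filter through the vector group alone.

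The 25 genes of the Kupffer niche and of *Csf1r* signalling, which hold the ligands and the transcription factors of these cells, held few that passed the test. In AAV-GFP against vehicle 1 of 18 tested rose, *Id1*, a target of BMP signalling that endothelial and other liver cells also express (log2 fold change 1.75, SE 0.34, edgeR adjusted p = 0.00266). *Id1* fell again in AAV-miR-34b/c against AAV-GFP (-1.46, SE 0.32, adjusted p = 0.0125), the 1 lower gene of 17 tested. The 1 higher gene was *Spi1*, which encodes PU.1, from 12.7 ± 1.76 to 23.2 ± 5.73 CPM (log2 fold change 0.87, SE 0.18, edgeR adjusted p = 0.00961). *Spi1* was also the 1 of 19 called against vehicle (0.69, SE 0.20, adjusted p = 0.0235), a call lost with library size only, with close pairs summed, under 6% mitochondrial share and without vehicle library 1, 4 or 5 (adjusted p from 0.0504 to 0.347). *Csf2* was at 0 in all 3 groups. In the libraries under 6% mitochondrial share, *Spi1* (0.53, adjusted p = 0.536) and *Id1* (-0.64, adjusted p = 0.551) were not called in the second comparison, nor were they with close pairs summed, where the changes were 0.94 (adjusted p = 0.0582) and -1.54 (adjusted p = 0.0505). Another gene of the list was called lower under 6% in the second comparison (1 of 19 tested), and 1 of 21 was lower against vehicle.

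Markers of other liver cells moved beside the members in places. Neutrophils also express *Spi1*, and their markers *S100a8* and *S100a9* were higher in AAV-miR-34b/c than in AAV-GFP (log2 fold changes 4.36 and 4.31, edgeR adjusted p = 0.00243 and 0.00415). *Retnlg*, the other gene called of the 10, had counts over the limit of the filter in 5 AAV-miR-34b/c and 2 AAV-GFP libraries. Of the 10, 3 were tested there and 5 against vehicle, and all of these were called higher. Against vehicle, *Retnlg*, *Ngp* and *Camp* passed the filter through the AAV-miR-34b/c libraries alone. With close pairs summed 4 of 4 and 2 of 7 were called higher, and under 6% mitochondrial share 7 of 7 in each. More genes passed the filter in these fits than with all libraries. Of the 10, *Ngp*, *Camp*, *Mmp8* and *Ltf* had at most 6, 3, 6 and 1 counts in an AAV-GFP library. In a vehicle library they had at most 3, 12, 6 and 2. Genes that pass the filter through AAV-miR-34b/c alone can hardly be called lower, so the larger counts add no support. The summed level of the 10 was 71.1 to 2082 CPM in AAV-miR-34b/c against 15.3 to 75.9 CPM in AAV-GFP and 16.8 to 84.6 CPM in vehicle, where *Ly6g* was at 0. Of 10 hepatocyte markers, 1 rose in each of the first and second comparisons, and 3 rose and 2 fell in the third. With close pairs summed these counts were 0, 1 and 1 higher and 0 lower, and under 6% mitochondrial share 0, 1 and 2 higher and, in the third, 1 lower. The 10 summed to 76183 to 98430 CPM in vehicle, 73977 to 82478 CPM in AAV-GFP and 73798 to 117350 CPM in AAV-miR-34b/c. Sinusoidal endothelial markers, of which 1 of 10 rose in AAV-GFP against vehicle and 1 of 10 in AAV-miR-34b/c against AAV-GFP (0 of 10 under 6% mitochondrial share), summed to 342 to 368, 325 to 395 and 333 to 472 CPM. Stellate cell markers rose for 3 of 8 tested in AAV-GFP against vehicle and fell for 2 of 8 in AAV-miR-34b/c against AAV-GFP, with sums of 361 to 552, 401 to 522 and 257 to 470 CPM. Of the 3 that rose, *Pdgfrb*, a receptor of platelet-derived growth factor, passed the filter through the AAV-GFP libraries alone. With close pairs summed these calls were 1 and 2 of 8, and under 6% mitochondrial share 1 of 7 and 0 of 8. T or B cell markers summed to at most 26.3 CPM in any library, with 1 of the 2 tested, *Ighm*, lower in AAV-GFP than in vehicle (log2 fold change -1.19, SE 0.36, edgeR adjusted p = 0.0361, and 0.170 with close pairs summed and 0.380 under 6% mitochondrial share) and *Cd3g*, *Cd8a* and *Cd79a* at 0 in vehicle and *Cd79a* at 0 in AAV-miR-34b/c. The part of these cells in the values of the members and of *Spi1* was not tested.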

How the data were processed

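Whole-liver RNA was sequenced from the 3′ end in 19 libraries (QuantSeq, 100 ng RNA per the labels, single reads of 100 bp). The authors deposited whole-number counts per gene as 1 table of unnormalized values. The methods state that reads were quality-filtered, trimmed, aligned and counted in the provider's pipeline. The submitters' processing notes name STAR and mm10. The version of STAR, the annotation and the strand setting are not given in the sources used here, nor is it stated whether UMIs were counted, so PCR duplicates may be counted, overlapping genes may share reads and counting errors cover sampling only.

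Symbols and gene positions came from GENCODE M21 (GRCm38, the assembly also called mm10), matched for 30934 of 31053 identifiers, and promoter windows from RefSeq GRCm38.p6. Each comparison was fitted on the whole table with only its 2 groups, using edgeR 4.0.16 in R 4.3.3 (TMM, filterByExpr with minimum count 10 and minimum total 15, quasi-likelihood test, Benjamini-Hochberg adjustment, threshold 0.05). The reported levels are CPM scaled by TMM. Ratios and single members were tested by two-sided exact permutation of log2 CPM (prior count 2), whose smallest p is 0.00126 for 7 against 5 libraries and 0.000583 for 7 against 7. Alternatives were other filters and size factors, DESeq2 1.42.0, limma-voom (limma 3.58.1, quality weights), a joint fit of the 3 groups, a replicate block, close pairs summed, each library left out in turn and, added after seeing the data, the sets of libraries under and over a mitochondrial share of 6%. Named from other lists were, per comparison, up to 2 genes by smallest p of each macrophage list and called genes of the niche list; *Cfp*, *Slc40a1*, *Plac8*, *Itgam*, *Cd14* and the genes of other cell types were named after their values were seen. The members, lists and tests were chosen with earlier results of these data known.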

Additional observations from a re-analysis of the deposited data

Results flagged for a closer look

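Of 36 groups of values examined (the 9 members, the total count and the ratios in each group), 1 held a sample far from the others, against 1.8 that chance would give. AAV-GFP library 5 had a total of 4383805 counts, and the next highest of its group had 3239809. Leaving that library out left the *Timd4* and *Cd163* calls against vehicle in place.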

How the results depend on the processing

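Genes called in AAV-GFP against vehicle numbered 1212 and became 2687 with limma-voom, 3088 with the replicate block, 227 with close pairs summed and 689 to 1859 with a library left out. In AAV-miR-34b/c against AAV-GFP the 311 became 624 with library size only, 535 with DESeq2, 813 with limma-voom, 142 with the block and 87 with close pairs summed (209 to 344 leaving one out). In AAV-miR-34b/c against vehicle the 2037 became 3839, 922 and 331 with limma-voom, the block and close pairs summed, and 1267 to 2695 leaving one out. In the libraries under 6% mitochondrial share the counts against vehicle were 180 and 642, and in those over 6% AAV-miR-34b/c against AAV-GFP gave 614. Library size only moved the median of all genes by -0.19 in AAV-miR-34b/c against AAV-GFP and -0.14 against vehicle, and the share of higher calls from 57.9% to 19.1% and from 55.5% to 31.1%.

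Members called went from 6 to 2, from 1 to 0 and from 3 to 0 with close pairs summed, and from 6 to 2 and from 3 to 1 under 6% mitochondrial share; against vehicle, in AAV-miR-34b/c, library size only and limma-voom gave 5. Leaving one out gave 4 to 7, 1 to 2 and 2 to 5. The *Clec4f* to *Adgre1* difference from vehicle was 0.99 with close pairs summed and 0.27 under 6%, past the threshold in neither, and from AAV-GFP 0.15 under 6%. The *Timd4* to *Clec4f* difference in AAV-miR-34b/c against vehicle was -1.65 with close pairs summed, no longer past it, and -1.72 to -1.17 leaving one out, and in AAV-GFP against vehicle -0.98 under 6%, also no longer past it. Signs turned for *Folr2* against AAV-GFP (0.47 over 6%, -0.25 to 0.10 leaving one out), *Adgre1* against AAV-GFP (0.10 under 6%) and, against vehicle in AAV-miR-34b/c, *Vsig4* (0.0035 under 6%), *Cd5l* (-0.0084 with library size only), *Marco* (-0.087 with library size only, -0.24 with limma-voom, -0.12 under 6%, -0.14 to 0.28 leaving one out) and *Csf1r* (-0.11 with library size only, -0.13 with the block, -0.45 under 6%, -0.12 to 0.19 leaving one out). The cause of these shifts was not tested.

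Replicate numbers did not pair the libraries: same-numbered deviations correlated at -0.28 to 0.28, with 2 of 5, 2 of 7 and 1 of 5 pairs above 0.1. With the replicate block 7, 1 and 3 members were called. In AAV-miR-34b/c against AAV-GFP the block lost the edgeR calls for *Gpnmb* (-1.38, adjusted p = 0.0653) and *Id1* (-1.54, adjusted p = 0.0564). Against vehicle it lost that for *Spi1* (0.50, adjusted p = 0.186). In AAV-GFP against vehicle it added calls for *Laptm5* (0.99, adjusted p = 0.0143) and *Mrc1* (-0.52, adjusted p = 0.0185).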
